A study of Mus musculus with 4 samples.

Results

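The 10 genes described here are Yap1, its paralog Wwtr1 (TAZ), their DNA-binding partner Tead1, the kinases Stk3, Lats1 and Lats2, the adaptor Sav1, the upstream regulator Nf2, and the apoptosis inhibitors Birc2 and Birc3 that lie beside Yap1. They were chosen by name as genes of the Hippo pathway and of the Yap1 amplicon, and every one of the 10 was found by its name on the arrays. Together they carried 94 of 161460 autosomal probes and were 10 of 17963 named autosomal genes. DNA of 4 liver tumours, numbered 239, 240, 244 and 252, came from Fah-/- Trp53-/- mice that lack both fumarylacetoacetate hydrolase and p53. The animals drank water with 7.5 mg/L of the drug NTBC, which protects the liver that lacks Fah, and spent 6 months on 2.5% of that dose. Each tumour was set against 1 shared pool of liver DNA from 3 Fah+/+ Trp53+/+ littermates, and all of these animals are labelled male. The measured value is a log2 ratio of tumour (Cy5) over pool (Cy3), centred on the autosomal median of each array, with positions in the mm9 build of the files. In bulk DNA, a small change in every cell and a larger change in part of the cells cannot be told apart.

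In the Hippo pathway, Nf2 at the membrane promotes a kinase relay in which Stk3, held by Sav1, activates Lats1 and Lats2. The Lats kinases phosphorylate Yap1 and Wwtr1 and keep them out of the nucleus, where they would otherwise bind Tead factors and drive growth genes. In mouse liver, loss of the relay or forced Yap1 leads to overgrowth and tumours, and the stretch that holds Yap1, Birc2 and Birc3 is known as a recurrent amplicon in mouse liver tumours and in human cancers.

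Between 98.8% and 98.9% of probes were well above background on each array, and the SD of probe-to-probe noise was 0.25 to 0.35 by array. The 2 probes of Trp53 averaged 0.07 ± 0.01 and the 2 probes of Fah 0.04 ± 0.20 (SD, n = 4). The labels do not say which part of either gene was removed, so the genotype is not checked by them. Tumour 252, labelled male, had a median of 0.73 on X and -2.43 on Y. Against the same pool, 239 and 240 had -0.09 and -0.11 on X. Whether a label or a change in the DNA of the tumour accounts for this was not tested. Tumour 244 had -0.30 on X and -1.20 on Y, where 239 and 240 had -0.31 and -0.14 on Y. No gene of the set lies on X or Y. Each count was also run without 252 and, separately, without 244, but not without both. With 4 arrays of 1 colour orientation and 1 pool, anything particular to the pool enters all 4 ratios and cannot be told apart from a change in the tumours.

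Each gene was read on 3 scales. Its own level is the mean of its probes, its flank is the mean of all other probes within 1 Mb, and its local level is the mean of all probes within 1 Mb, its own included. For scale, 1 extra copy in all cells of a diploid tumour gives 0.58, and the loss of 1 of both copies gives -1. Tests were limma fits of the 4 tumours against 0 over all 17963 genes, with Benjamini-Hochberg adjustment and a threshold of 0.05.

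Of the stretches around the 10 genes, those around Stk3 and Sav1 passed the test against the centre of the arrays. Mean local levels ran from -0.24 around Sav1 to 0.25 around Stk3, with a median over the 10 genes of -0.08 against 0.01 over all genes. The median size of the shift, sign aside, was 0.11 against 0.07. By limma, 1 of 10 stretches rose (Stk3) and 1 fell (Sav1), beside 11.2% of all genes called in either direction, 6.42% higher and 4.79% lower. At an unadjusted p under 0.05 the count was 8 of 10, beside 30.2% of all genes, and 3 of the 8, Yap1, Birc2 and Birc3, read nearly the same stretch. The local level rests on many more probes than a gene's own level. The smallest flank, that of Wwtr1, held 92 probes and the largest, that of Nf2, 199.

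**Figure D1:**
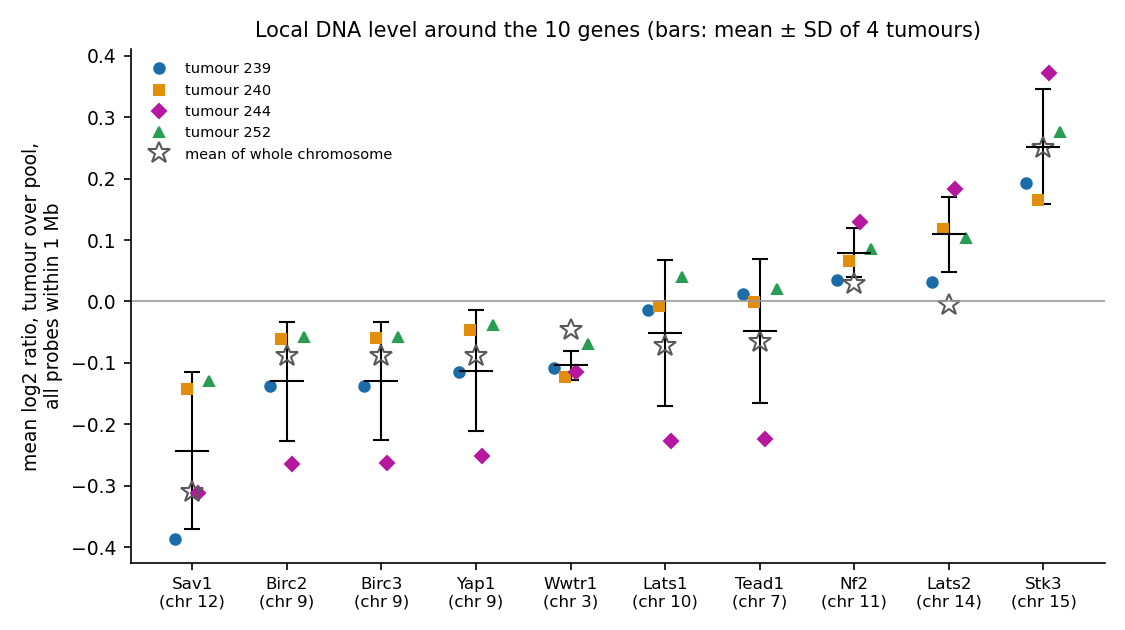
Local level of the 10 genes, as mean log2 ratio of tumour over pool for all probes within 1 Mb (y axis), with each tumour as a point, bars for mean ± SD of 4 tumours and stars for the mean of the whole chromosome. Stk3 is highest and sits at the mean of its chromosome. Sav1 is lowest, at -0.24, and sits above the mean of its chromosome, -0.31. Tumour 244 is the lowest point at Yap1, Birc2, Birc3, Lats1 and Tead1.

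Yap1 encodes the transcriptional coactivator that Hippo signalling restrains. Its 7 probes span 58.4 kb of chromosome 9 and averaged -0.10 in tumour 239, -0.13 in 240, -0.34 in 244 and -0.15 in 252. All 4 tumours lay below 0, and 244 was lowest. The mean was -0.18 ± 0.11 (SD, n = 4; limma adjusted p = 0.0485), a fall that rested on 1 probe. Probe 7, at one end of the gene's probes, read -1.71, -1.69, -2.03 and -1.88 in the same order and was well above background on all 4 arrays. The other 6 probes averaged 0.17, 0.13, -0.06 and 0.14, with a mean of 0.09 ± 0.10, so 3 of 4 tumours were then above 0. Only 347 of 161460 autosomal probes (0.215%) were at or below -1.5 in all 4 tumours, and probe 7 was the 1 such probe among the 94 of the gene set. The probes of Yap1 with the lowest and highest means are shown because the sign of the gene depends on them, with CG pairs in capitals. The files give their positions and neither the strand nor whether they fall in an exon or intron.
Yap1 probe 7, chr9:7995336-7995395: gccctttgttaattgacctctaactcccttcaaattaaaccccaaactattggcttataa
Yap1 probe 1, chr9:7937019-7937078: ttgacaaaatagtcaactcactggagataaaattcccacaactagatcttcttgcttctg
Probe 1, at the other end, read 0.61, 0.62, 0.30 and 0.53. Both sequences have the same GC content, 36.7%. The cause of the low probe was not tested.

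**Figure D2:**
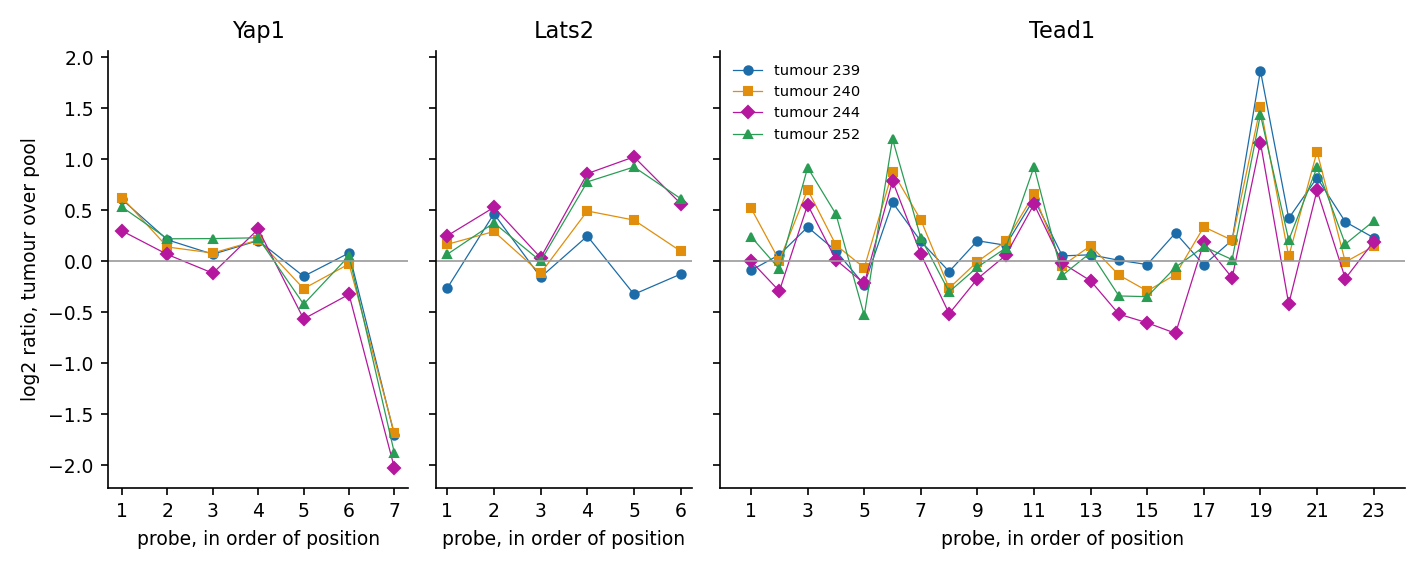
Log2 ratio of tumour over pool (y axis) of each probe of Yap1, Lats2 and Tead1 in order of position (x axis), with 1 line per tumour. The 4 lines run together at Yap1 probe 7 near -1.83 and at Tead1 probe 19 between 1.16 and 1.87, whereas at Lats2 probes 4 to 6 tumour 239 lies below the others.

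The local level around Yap1 was -0.11 in tumour 239, -0.05 in 240, -0.25 in 244 and -0.04 in 252. All 4 values were below 0, and those of 240 and 252 were within 0.05 of it. The mean of -0.11 ± 0.10 (SD, n = 4) did not pass the test (limma adjusted p = 0.148), and its 95% interval ran from -0.22 to -0.0064. Tumour 244, the lowest, was also low along the whole of chromosome 9, at -0.23. Without 244 the mean was -0.07 and the adjusted p 0.0488, and 39.0% of all genes were then called, against 11.2% with it. Against its flank Yap1 differed by -0.07 ± 0.06 (limma adjusted p = 0.148). Leaving out probe 7 turned this difference to 0.21 (adjusted p = 0.0050), and taking the median over probes turned it to 0.17 (adjusted p = 0.023). In these settings 50.3% and 43.1% of all genes were called. Probe 7 was picked as the most distant by these same values, so the rise without it is a description only.

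Birc2 and Birc3 encode cellular inhibitors of apoptosis and share a span of 173 kb with Yap1. The 2 probes of Birc2 averaged -0.15 in tumour 239, -0.52 in 240, -0.65 in 244 and -0.59 in 252. Tumour 239 stood above the other 3, and all lay below 0. The mean was -0.47 ± 0.23, a fall against 0 (limma adjusted p = 0.0021). The flank of Birc2 was only at -0.14, -0.06, -0.26 and -0.05, so the gene differed from it by -0.01, -0.46, -0.39 and -0.54. This mean difference of -0.35 ± 0.23 passed the test (limma adjusted p = 0.0201). Both probes are shown, since the call rests on them alone, with CG pairs in capitals.
Birc2 probe 1, chr9:7822664-7822723: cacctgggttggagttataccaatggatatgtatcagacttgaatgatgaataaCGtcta
Birc2 probe 2, chr9:7835042-7835101: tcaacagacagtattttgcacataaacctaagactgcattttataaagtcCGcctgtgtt
Probe 1 read -0.17, -0.56, -0.78 and -0.76, and probe 2 read -0.12, -0.47, -0.52 and -0.42. Both therefore kept tumour 239 nearest to 0. Without 240, 244 or 252 the difference from the flank no longer passed (adjusted p = 0.0821, 0.0701 and 0.0749), and with normexp background correction it was 0.01.

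Birc3, also with 2 probes, averaged -0.16 in tumour 239, -0.25 in 240, -0.41 in 244 and -0.20 in 252. Every tumour was below 0 and the mean was -0.25 ± 0.11 (limma adjusted p = 0.0117). It differed from its flank by -0.13 ± 0.07 (limma adjusted p = 0.0364). With normexp that difference turned to 0.24, and it did not pass without 240, 244 or 252 (adjusted p = 0.136, 0.126 and 0.115). The local levels of Birc2 and Birc3 both averaged -0.13 ± 0.10 and did not pass (adjusted p = 0.105 for each).

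The stretch from the first Birc2 to the last Yap1 probe, chr9:7822664-7995395, was then read as a unit. Its 17 probes averaged -0.15 in tumour 239, -0.13 in 240, -0.33 in 244 and -0.18 in 252. The 147 probes within 1 Mb on either side averaged -0.12, -0.05, -0.25 and -0.03. Interval and flank thus fell on the same side of 0 in each tumour, and the interval was the lower in 4 of 4. The difference was -0.08 ± 0.05 (n = 4; exact two-sided sign-flip permutation p = 0.125, the smallest that 4 tumours allow). Without Yap1 probe 7 it was 0.07, 0.01, 0.02 and -0.04, with a mean of 0.02 ± 0.04 (exact sign-flip permutation p = 0.5). Runs of probes there were also set against the level of a single-copy gain. Among 160 runs of 5 neighbouring probes in the region, the highest run was 0.20 in tumour 239, 0.28 in 240, 0.08 in 244 and 0.36 in 252. In each tumour 0 of these runs reached 0.58, the level of a single-copy gain in every diploid cell. Over all autosomes, 0.0905%, 0.0936%, 1.44% and 0.337% of such runs reached it in the same order of tumours, so 0 of 160 is near the background. Of the autosomal runs, 9.23%, 5.81%, 40.3% and 3.90% lay at or above the highest run of the region.

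**Figure D3:**
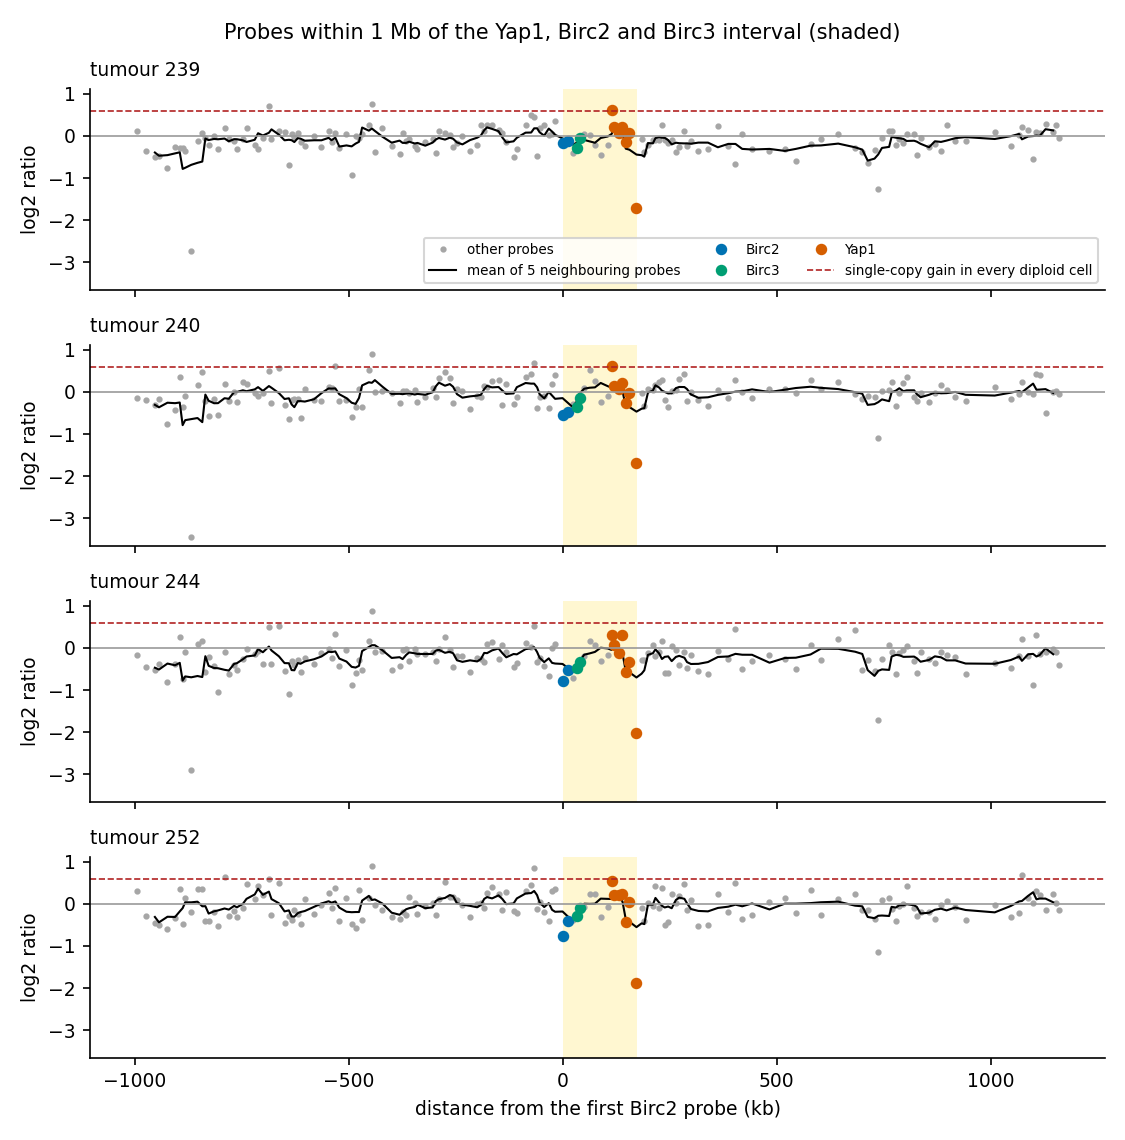
Log2 ratio of tumour over pool (y axis) of each probe against the distance in kb from the first Birc2 probe (x axis), 1 panel per tumour, with the mean of 5 neighbouring probes as a line and the level of a single-copy gain (0.58) dashed. The line stays under the dashed level in all 4 tumours, and the Yap1 probe near -1.83 lies at the right edge of the shaded interval.

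Of 21 other named genes with a probe within 1 Mb of the interval, 0 had a local level that passed in either direction, beside 11.2% of all genes. Those levels ran from -0.15 to -0.10. At an unadjusted p under 0.05, 20 of the 21 local levels lay below 0, beside 30.2% of all genes in either direction. These 20 levels share most of their probes. On their own probes, 1 was higher than 0 and 3 were lower by limma, beside 38.9% of all genes called in that comparison. The matrix metalloproteinase gene Mmp1b was the higher one, at 0.33 ± 0.11 on 3 probes. The lower ones were Mmp12 on 1 probe (-0.31 ± 0.24), the calcium channel gene Trpc6 on 13 probes (-0.20 ± 0.11), and a transcript without a gene symbol on 1 probe (-0.68 ± 0.33). In Mmp1b and Trpc6 1 probe carried much of the value. Without its most distant probe Mmp1b averaged 0.07 ± 0.14 and Trpc6 -0.11 ± 0.09. The progesterone receptor gene Pgr, with 5 probes, averaged -0.01 ± 0.14, and Dync2h1, a motor protein gene of cilia with 22 probes, averaged -0.19 ± 0.15, or -0.08 ± 0.12 without a probe that read -2.73, -3.44, -2.90 and -0.20.

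Wwtr1, the second coactivator, lies on chromosome 3. Its 13 probes averaged -0.08 in tumour 239, -0.14 in 240, -0.13 in 244 and -0.13 in 252, which is the tightest set of the 10 genes. All 4 tumours were below 0, but the mean of -0.12 ± 0.03 did not pass (limma adjusted p = 0.12). Its local level of -0.10 ± 0.02 also missed the threshold (adjusted p = 0.0747). Without tumour 244 this level passed at the same size (adjusted p = 0.00812), where 39.0% of all genes passed, against 11.2% with 244. Against its flank it differed by -0.02 ± 0.04 (adjusted p = 0.641). Chromosome 3 as a whole averaged -0.05 ± 0.02.

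Tead1, which binds DNA for both coactivators, had 23 probes over 217 kb of chromosome 7. They averaged 0.26 in tumour 239, 0.26 in 240, 0.01 in 244 and 0.24 in 252. Tumour 244 stood below the other 3. Its flank of 163 probes was lower in every tumour, at -0.02, -0.04, -0.26 and -0.01. The difference was therefore alike in all 4, at 0.29, 0.30, 0.27 and 0.25, with a mean of 0.28 ± 0.02 (limma adjusted p = 0.0016). It stayed past the threshold when any 1 tumour was left out and when probe 19 was left out, at 0.21 (adjusted p = 0.0036). With normexp it was 0.15 (adjusted p = 0.0039), and with the median over probes 0.15 (adjusted p = 0.022). Probe 19 read 1.87, 1.51, 1.16 and 1.44, and was 1 of 133 autosomal probes (0.0824%) at or above 1 in all 4 tumours. It is shown as the highest probe of the gene set and holds no CG pair.
Tead1 probe 19, chr7:120007790-120007849: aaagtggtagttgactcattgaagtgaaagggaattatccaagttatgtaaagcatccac
The remaining 22 probes averaged 0.19, 0.21, -0.04 and 0.19, between -0.32 and 0.88 for single probes. The probe at 0.88, probe 21, was well above background on 0 arrays and averaged -0.58 under normexp. Of the 23 probes, 21 were well above background on all 4 arrays. The local level around Tead1 was 0.01, -0.00, -0.22 and 0.02, so 3 tumours sat at 0 and 244 did not. Chromosome 7 of tumour 244 averaged -0.23. The mean local level was -0.05 ± 0.12 (adjusted p = 0.544).

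Stk3 encodes MST2, the kinase that opens the relay, and Sav1 the scaffold that holds it to Lats. The local level of Stk3 on chromosome 15 was 0.19 in tumour 239, 0.17 in 240, 0.37 in 244 and 0.28 in 252. All 4 were above 0, with 244 highest, and the mean of 0.25 ± 0.09 rose (limma adjusted p = 0.0135). The whole of chromosome 15 averaged 0.23, 0.15, 0.35 and 0.28, so the stretch around Stk3 was at the level of its chromosome. Its 28 own probes averaged 0.11, 0.12, 0.29 and 0.16 (mean 0.17 ± 0.08; adjusted p = 0.0504). They lay below the flank in 4 of 4 tumours, by 0.10 on average (SD 0.03; adjusted p = 0.0473). That call was lost without tumour 239, 240, 244 or 252 (adjusted p = 0.0646, 0.0913, 0.149 and 0.163). It was also lost with flanks of 0.5 Mb, 2 Mb or the whole chromosome (adjusted p = 0.103, 0.0939 and 0.0879), and with normexp the probes lay above the flank by 0.08.

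Sav1 on chromosome 12 showed the opposite. Its local level was -0.39 in tumour 239, -0.14 in 240, -0.31 in 244 and -0.13 in 252, all below 0, with 239 and 244 lowest. The mean of -0.24 ± 0.13 was a fall (limma adjusted p = 0.0308). The whole of chromosome 12 averaged -0.40, -0.21, -0.39 and -0.24. That is close to the local value in 239 and lower than it in 240, 244 and 252. On its own 2 probes Sav1 averaged -0.41, -0.32, -0.10 and -0.24 (mean -0.27 ± 0.13; adjusted p = 0.0117). Its difference from the flank was -0.03 ± 0.17 (adjusted p = 0.773). With normexp that difference was -0.22 (limma adjusted p = 0.0115), where 61.6% of all genes were called. The local level of Stk3 exceeded that of Sav1 by 0.58, 0.31, 0.68 and 0.41, a mean of 0.49 ± 0.17 (SD, n = 4). These are the highest and the lowest of the 10, so the difference is a description only. Neither call held without tumour 239 or without 252. The local level of Stk3 was then 0.27 (adjusted p = 0.0798) and 0.24 (adjusted p = 0.0891), and that of Sav1 -0.19 (adjusted p = 0.139) and -0.28 (adjusted p = 0.0738). In those fits of 3 tumours 0% of all genes passed, so no gene kept a call. With centring on the mode of 1 Mb bins, which lay 0.11 above the median in tumour 244, Sav1 had -0.27 (adjusted p = 0.0768).

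Lats1 and Lats2 encode the kinases that phosphorylate Yap1 directly. Lats2 on chromosome 14 had the widest spread of own levels between tumours in the set, with -0.03 in tumour 239, 0.22 in 240, 0.54 in 244 and 0.46 in 252. Tumour 239 was at 0 and the other 3 were above it. The mean of 0.30 ± 0.26 passed against 0 (limma adjusted p = 0.026), but the difference from the flank, 0.20 ± 0.21, did not (adjusted p = 0.087). Without tumour 239 that difference was 0.28 and passed (adjusted p = 0.0166), and without 240, 244 or 252 it was 0.23, 0.14 and 0.14 and did not (adjusted p = 0.14, 0.268 and 0.268). The call against 0 was also lost without 240, 244 or 252 (adjusted p = 0.0555, 0.121 and 0.101). Probes 1 to 3 averaged 0.01, 0.11, 0.27 and 0.15, and probes 4 to 6 averaged -0.07, 0.33, 0.81 and 0.77, so tumour 239 was lowest and 244 highest in both. The spread was wider over probes 4 to 6, which are shown for that reason with CG pairs in capitals.
Lats2 probe 4, chr14:58347008-58347067: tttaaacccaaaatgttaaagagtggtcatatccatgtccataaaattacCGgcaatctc
Lats2 probe 5, chr14:58354810-58354869: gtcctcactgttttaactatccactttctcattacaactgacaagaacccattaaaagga
Lats2 probe 6, chr14:58363783-58363842: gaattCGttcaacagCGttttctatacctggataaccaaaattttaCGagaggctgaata
Probe 4 read 0.25, 0.49, 0.86 and 0.78, probe 5 read -0.33, 0.40, 1.02 and 0.92, and probe 6 read -0.13, 0.10, 0.56 and 0.61. At each of them 239 lay below 240, and both lay below 244 and 252. Over all tumours probes 4, 5 and 6 averaged 0.59, 0.51 and 0.29, and under normexp 0.56, -0.06 and -0.03. The difference of Lats2 from its flank was 0.10 under normexp (limma adjusted p = 0.279). The local level of Lats2 was 0.11 ± 0.06 (adjusted p = 0.0984), and that of its whole chromosome -0.01 ± 0.04.

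Lats1 on chromosome 10 had 3 probes, at 0.24 in tumour 239, 0.10 in 240, -0.09 in 244 and 0.15 in 252. Tumour 244 was the 1 below 0, and the mean of 0.10 ± 0.14 did not pass (limma adjusted p = 0.284). Against its flank Lats1 was higher in 4 of 4 tumours, by 0.26, 0.11, 0.14 and 0.11 (mean 0.15 ± 0.07; adjusted p = 0.0207). Without its probe 1 the difference was 0.01 (adjusted p = 0.88), and it did not pass without 240, 244 or 252 (adjusted p = 0.0533, 0.0684 and 0.0522). Its local level was -0.05 ± 0.12, with 244 at -0.23.

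Nf2 encodes merlin, the membrane protein that starts the relay. Its 8 probes on chromosome 11 averaged 0.02 in tumour 239, 0.09 in 240, 0.11 in 244 and 0.05 in 252, all above 0 by little. The mean was 0.07 ± 0.04 (limma adjusted p = 0.373) and the difference from the flank -0.01 ± 0.02 (adjusted p = 0.789). Probe 7 alone read 1.14, 1.47, 0.92 and 1.43 and was well above background on only 1 array. Without it the other probes averaged -0.10 ± 0.06 and lay below the flank by 0.18 (SD 0.04; adjusted p = 0.0065). With each gene's most distant probe left out in this way, 50.3% of all genes were called. Under normexp probe 7 averaged -0.29, and the gene lay below its flank by 0.18 (adjusted p = 0.0019), where 61.6% of all genes were called.

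Over the 10 genes, 2 were higher than their flank (Tead1 and Lats1) and 3 lower (Birc2, Birc3 and Stk3). In this comparison 48.7% of all genes were called, 25.8% higher and 22.9% lower, so 5 of 10 is near the background. The median difference was -0.02 in the set and 0.01 over all genes. Calls became rarer with more probes, from 56.6% of genes with 1 probe to 30.0% of genes with 10 or more. The departures of single probes from their gene's mean repeated between arrays, with correlations of 0.76 to 0.91 over the 94 probes, which share the pool and the probe sequences. A fit over 4 arrays does not count such repeated departures as error. Without tumour 240, 244 or 252 the counts were 1 higher (Tead1) and 0 lower each, where 32.7%, 31.4% and 32.2% of all genes were called. Without 239, where 52.7% were called, Lats2 joined Tead1 and Lats1 above, and Yap1 took the place of Stk3 beside Birc2 and Birc3 below. Against 0, own levels passed for 2 genes above (Lats2 and Tead1) and 4 below (Yap1, Birc2, Birc3 and Sav1), where 21.2% and 17.7% of all genes passed. Birc2 kept this call with any 1 tumour left out. Yap1 lost it without 239, 240, 244 or 252 (limma adjusted p = 0.0545, 0.118, 0.0847 and 0.127). Birc3 and Sav1 lost it without 240 (0.0511 and 0.0614), and Tead1 without 239, 240 or 252 (0.112, 0.169 and 0.155).

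**Figure D4:**
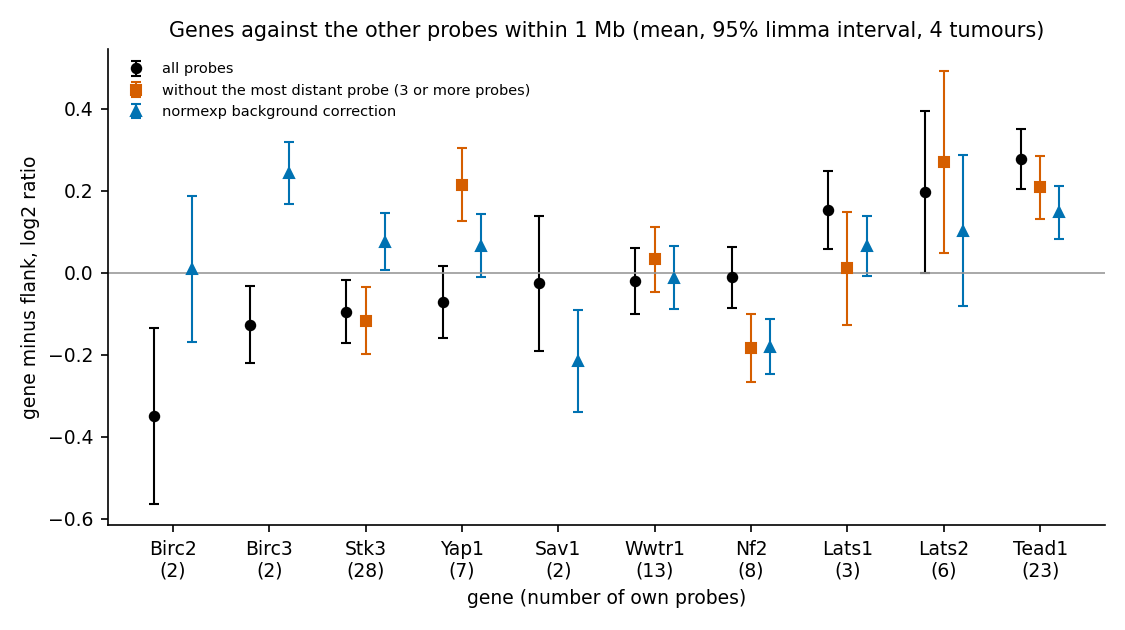
Mean difference of each gene from the other probes within 1 Mb (y axis, log2 ratio) with 95% limma intervals over 4 tumours, with all probes, without the most distant probe where a gene had 3 or more, and with normexp background correction. The interval of Tead1 stays above 0 in all 3, and the means of Lats1 and Lats2 do too, though not all of their intervals. The means of Yap1, Birc2, Birc3, Stk3 and Wwtr1 change sides.

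In the order of mean local level, from low to high, the genes were Sav1, Birc2, Birc3, Yap1, Wwtr1, Lats1, Tead1, Nf2, Lats2 and Stk3. Ranges of neighbours in that order overlapped except for Tead1 and Nf2. Stk3 was above Lats2 and Sav1 below Birc2 in 4 of 4 tumours, though the ranges of each pair overlapped.

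A wider list of 45 other Hippo genes was read in the same way, and 42 of them had probes. Their median local level was 0.02, and 5 passed above 0 and 2 below, beside 6.42% and 4.79% of all genes. Those above were Csnk1e, a kinase that marks Yap1 for breakdown (0.29 ± 0.09), and the polarity gene Scrib (0.26 ± 0.09), both on chromosome 15 as Stk3 is. Also above were Stk4, the paralog of Stk3 (0.15 ± 0.05), and Ywhab (0.15 ± 0.05), both on chromosome 2. The product of Ywhab holds phosphorylated Yap1 in the cytoplasm. Stk4 and Ywhab lie close together and read nearly the same stretch, so the 5 genes above are not 5 separate stretches. The last one above was Birc5, a target gene on chromosome 11 (0.13 ± 0.02). Those below were the polarity gene Mpp5 (-0.33 ± 0.10) and Frmd6, a membrane-linked regulator of the relay (-0.26 ± 0.11), both on chromosome 12 as Sav1 is. The stretch read around Frmd6 overlaps the one read around Sav1. Without tumour 239 or 252, 0 of the 42 passed, as did 0% of all genes by the same limma fit. Without 244, 10 passed above and 4 below, where 39.0% of all genes passed.

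By role, 1 of 7 kinases and Mob1 adaptors had a raised local level and 0 a lower one. The raised one was Stk4, and nearly the same stretch counts again through Ywhab among the proteins that bind Yap1. Among upstream membrane and polarity proteins the counts were 1 and 2 of 13, among proteins that bind Yap1 or govern its turnover 2 and 0 of 11, among Tead and Vgll factors 0 and 0 of 6, and among target genes 1 and 0 of 5. Against the flank, 11 of the 42 were higher and 7 lower, beside 25.8% and 22.9% of all genes, with a median of 0.05 against 0.01. The largest differences were those of genes with few probes. They were Areg, a growth factor target (-0.77 ± 0.10, 1 probe), Rassf1, a scaffold of the kinases (0.57 ± 0.16, 1 probe), Ankrd1, a target (0.36 ± 0.06, 1 probe), and Taok2, a kinase acting on Stk3 (0.34 ± 0.11, 2 probes). Among genes with many probes, Map4k4, a kinase that acts on the Lats kinases, differed by 0.21 ± 0.06 on 14 probes and Ptpn14, a phosphatase that binds Yap1, by 0.18 ± 0.12 on 16. The protocadherin gene Fat1 differed by 0.19 ± 0.05 on 9 probes. The polarity gene Dlg1, named after its values were seen, differed by -0.13 ± 0.05 on 19. Under normexp Ptpn14 turned to -0.11.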

How the data were processed

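Genomic DNA of 4 liver tumours and of 1 pool of 3 normal livers was hybridised on 4 two-colour arrays of 1 slide, without a dye swap. Agilent Feature Extraction 12.0.0 read the scans, per the submitters' processing notes, while a later version number stands in the file headers. Per the file headers, background subtraction, detrending and a linear dye normalisation were applied by the authors to give the deposited processed intensity. The authors' deposited value table holds the log10 ratio of tumour over pool, not centred, which equals the scanner files' own ratio. Other deposited columns are raw mean and background intensity and flags for outliers and for signal above background, per the file headers. Probe positions are those of mm9, per the files.

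Each array held 180880 spots. Its 6575 control spots and 95 to 120 outlier spots were dropped. Then log2(tumour/pool) was taken for each spot, repeat spots of a probe were averaged, and the median over autosomes was subtracted. No loess or quantile normalisation was added. Genes took the probes that carry their name, and flanks needed at least 5 probes. limma 3.58.1 in R 4.3.3 fitted an intercept to the 4 tumours, with Benjamini-Hochberg adjustment over 17963 genes. The fit against the flank was tested on simulated data with independent noise. It called 4 of 100 genes shifted by 0.2, 56 of 100 shifted by 0.4 and 1 of 17762 unshifted genes. That noise held no probe departures that repeat between arrays. The simulation therefore does not bear on the 48.7% of genes called in the real data. The rest used matplotlib 3.10.9, statsmodels 0.14.6, scipy 1.17.1, pandas 2.3.3 and numpy 2.4.6 under Python 3.11.15. Of 45 listed pathway genes, Crb3, Ccn1 and Ccn2 had no probe, and Patj was found under its older name Inadl through a RefSeq table of GRCm38.p6 that served for names only. Named genes are the 10 of the set, neighbours of Yap1 within 1 Mb, and listed genes past the threshold, at most 15 per comparison by size. The members and lists were chosen with earlier results of these data known. The precision is limited by the number of arrays, and nothing in the labels gives the spread among normal livers. Alternatives covered the centring, normexp (offset 50), the value table, lowess, the probe filters, the flank width, the median over probes, robust limma and each tumour left out. Centring on the mode of 1 Mb bins, GC correction, leaving out each gene's most distant probe and leaving out that of Yap1 from the interval were added after the data were seen.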

Additional observations from a re-analysis of the deposited data

Results flagged for a closer look

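Each group of 4 tumour values behind a result was checked for a tumour standing far from the others, and chance alone picks about 1 in 20 such groups. Of 53 groups checked, 2 were picked, both for Tead1 in tumour 244. The local level around Tead1 was -0.22 in tumour 244, while the other tumours lay between -0.00 and 0.02. The own level of Tead1 was 0.011 in tumour 244, against 0.24 to 0.26 in the others.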

How the results depend on the processing

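No paired analysis was possible because all 4 tumours form 1 group set against 1 pool. Tead1 stayed above its flank under every alternative run, by 0.15 with normexp or the median over probes and by 0.21 to 0.29 otherwise. The counts of genes moved as follows, with the causes not tested. A minimum of 3 probes left 7 of the 10 genes (without Birc2, Birc3 and Sav1) and 28 of the 42 listed, so its counts are over fewer genes. Of the 10 genes, 2 were above and 3 below their flank. Leaving out 1 tumour gave 1 to 3 above and 0 to 3 below, and lowess gave 1 below, as did the 7 genes of at least 3 probes. In local level, 1 of the 10 was above 0 and 1 below. With 1 tumour left out these were 0 to 3 and 0 to 5, and those below were 4 with normexp and 0 among the 7 genes or with centring on the mode of 1 Mb bins. Against 0, 2 were above and 4 below. Leaving out 1 tumour gave 0 to 1 above and 1 to 3 below. Normexp or lowess gave 1 above and 2 below, 1 of the 7 genes was below, and the median over probes, the mode of 1 Mb bins or leaving out the most distant probe gave 1 above.

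Of the 42 listed genes, 11 were above and 7 below their flank. Those above were 7 of the 28 with at least 3 probes, and those below 11 with normexp, 3 with the median over probes and 3 to 7 with 1 tumour left out. In local level, 5 were above 0 and 2 below. Those above were 2 with normexp, lowess, the whole chromosome as flank, at least 3 probes (2 of 28), the mode of 1 Mb bins or GC correction, and 0 to 10 with 1 tumour left out. Those below were 1 with the mode of 1 Mb bins and 0 to 4 with 1 tumour left out. The interval of Yap1, Birc2 and Birc3 turned from -0.08 to 0.018 without the low Yap1 probe.

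Single genes changed sign as follows. Under normexp the difference from the flank became 0.066 for Yap1, 0.0095 for Birc2, 0.24 for Birc3, 0.076 for Stk3, 0.046 for Birc5, 0.097 for Csnk1e, 0.038 for Vgll3, -0.46 for Llgl1, -0.11 for Ptpn14 and -0.071 for Frmd6. With the median over probes it became 0.17 for Yap1 and 0.039 for Wwtr1. Without the most distant probe it became 0.21 for Yap1, 0.033 for Wwtr1 and 0.030 for Vgll3. On probes well above background Llgl1 had -0.16, and with GC correction Wwtr1 had 0.0085. With other flanks Nf2 had 0.00719 (0.5 Mb) and 0.040 (whole chromosome), and Sav1 0.024 (2 Mb) and 0.042 (whole chromosome). With 1 tumour left out, the difference of Sav1 ran from -0.11 to 0.025, and was 0.0040 without 252. In local level, leaving out 1 tumour gave -0.082 to 0.0065 for Lats1 and -0.071 to 0.011 for Tead1, the highest without 244. Lats2 had -0.0050 on its whole chromosome and Nf2 -0.012 under normexp. Against 0, Yap1 had 0.065 with the median and 0.094 without its most distant probe. Under normexp Birc3 had 0.055, Lats1 -0.064 and Nf2 -0.19. Lats1 had -0.041 without its most distant probe. Nf2 had -0.094 on probes well above background, -0.089 with the median and -0.098 without its most distant probe.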
